A study of Ostreococcus tauri with 30 samples.

Results

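The comparison set 3 RNA libraries of untreated Ostreococcus tauri, a green picoalga, sampled at 12 h against 3 sampled at 0 h. These are 6 of the 30 libraries of a copper series, chosen from their labels as the controls of the first and the last sampling. All 6 came from strain RCC745, grown in liquid culture without added copper to the exponential phase, in artificial seawater with Keller nutrients, under 12 h of light and 12 h of dark. The other 24 libraries, in triplicate, cover untreated controls at 1 and 4 h and the 2 copper levels, lower and higher, each at 1, 4 and 12 h. The levels are named only in that order because the labels and the protocol give different concentrations for them. Of these, the lower and the higher copper libraries at 1 and 12 h, 6 for each level, are set beside the controls below. The labels give neither the hour of the light cycle at which 0 h fell nor whether the lights were on at 12 h, so time since 0 h and phase of the light cycle cannot be told apart. They do not say that replicates were separate cultures, so the spread that p-values rest on may be technical.

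Ostreococcus is among the smallest free-living eukaryotes, with a compact genome, a single chloroplast and a single mitochondrion. Under light-dark cycles its cells grow in the light and divide once they have replicated their DNA, and the transcripts of photosynthesis, metabolism, DNA replication and cell division are known to rise and fall with the hour of the day. Within the chloroplast, photosystem II and photosystem I drive electron transport, the Calvin cycle fixes carbon, and photorespiration returns the carbon that Rubisco loses when it binds oxygen.

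Polyadenylated RNA was counted for 7627 genes and, in a second table, for 236 KEGG modules, which are sets of genes that make up a pathway or a complex. All gene tags name numbered chromosomes and none names the chloroplast or mitochondrial genome. Whether module counts include genes of those 2 genomes is not given. Modules of the photosystems and the respiratory chain may therefore cover only part of each complex. Levels are given as CPM, counts relative to the total of a library in the gene table or in the module table, scaled by TMM, so that fewer cells and less RNA per cell cannot be told apart. Changes are log2 ratios of 12 h over 0 h with their standard error (SE), and a gene or module is called at an edgeR adjusted p under 0.05. Gene counts per library ran from 4074755 to 4854863 at 0 h and from 2549094 to 3549410 at 12 h, so every 12 h library was shallower than every 0 h library. Module counts were 10.62 to 11.41 times the gene counts in these 6 libraries. Control replicate 3 stood apart in that ratio at 1 h (6.055) and at 4 h (20.05), against 9.891 to 12.2 in the other 28 libraries. With the gene columns of these 2 libraries exchanged the ratios would be 11.03 and 11.01, so their labels may be exchanged in 1 of the tables. Both entered the 12 h against 0 h comparison only through the shared fit, and values of controls at 1 and 4 h are given below with the labels as deposited and with replicate 3 told apart. On the first principal component of the 6 gene profiles, which held 54.2% of the variance, the 0 h libraries lay at -10.1, -13.5 and -35.6 and the 12 h libraries at 7.38, 13.4 and 38.4. Replicate 3 of each time was thus at the outer end of its group.

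Between 0 and 12 h, 294 of 7190 tested genes were called (4.09%; 22.9% had an unadjusted p under 0.05), of which 161 rose (2.24%) and 133 fell (1.85%). Of the 236 modules 20 were called (8.47%), of which 10 rose and 10 fell (4.24% each). The DESeq2 test called 582 genes (319 higher, 263 lower) and 31 modules (12 higher, 19 lower), and edgeR with only the 6 libraries fitted called 619 genes (322 higher, 297 lower) and 12 modules (6 each way). Since the 20 modules were called on these libraries, it is a description only that the 3 libraries at 12 h did not overlap the 3 at 0 h in any of them; of all 236 modules 75 did not overlap (31.8%; 14.8% with 12 h higher and 16.9% with 12 h lower). Called changes of modules ran from 0.21 to 1.90 in size on the log2 scale, and 12 of the 20 were under 1.5-fold. Isoleucine synthesis from threonine, photorespiration, photosystem I and the reductive citrate cycle were among the modules that rose. Origin recognition, the FtsH protease, glutathione synthesis and phenylalanine synthesis were among those that fell. A further 34 modules had an unadjusted p under 0.05 and were not called.

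Single libraries carried many of these calls. Without 0 h replicate 3, 42 genes and 7 modules were called, and without 12 h replicate 3, 47 genes and 9 modules. Without 0 h replicates 1 or 2 the gene counts were 137 and 140, with more falls than rises in both cases, as also without replicate 3 of either time. Without 12 h replicates 1 or 2 the counts were 184 and 164. The modules numbered 13 without 0 h replicate 2 and 10 without 12 h replicate 2. With replicate 3 of both times left out, 6 genes and 4 modules were called. The 4 modules were isoleucine synthesis from threonine, photorespiration, the serine pathway and FtsH. Reductive citrate cycle and origin recognition joined these 4 among the modules called without any 1 of the 6 libraries.

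Calls of modules also depended on how the module table was scaled. With library sizes and TMM factors of the gene table the median of all modules moved from 0.019 to 0.11, and isoleucine synthesis from threonine was the only module called. With the control replicates 3 at 1 and 4 h also left out, 11 were called on that scale, 8 higher and 3 lower. All 20 modules kept their direction under both scalings. This is a description only, since the median moved by less than the smallest called change, 0.21 in size. When only the 6 libraries were fitted, 11 of the 20 calls were lost: photosystem I, glucuronate, beta-carotene, the U5 snRNP, serine, phenylalanine, the GABA shunt, monolignols, phosphatidylethanolamine, ubiquinone and the complex I part. Leaving out the control replicates 3 at 1 and 4 h ended the calls of photosystem I, the U5 snRNP, serine, monolignols, ubiquinone and the complex I part.

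**Figure D1:**
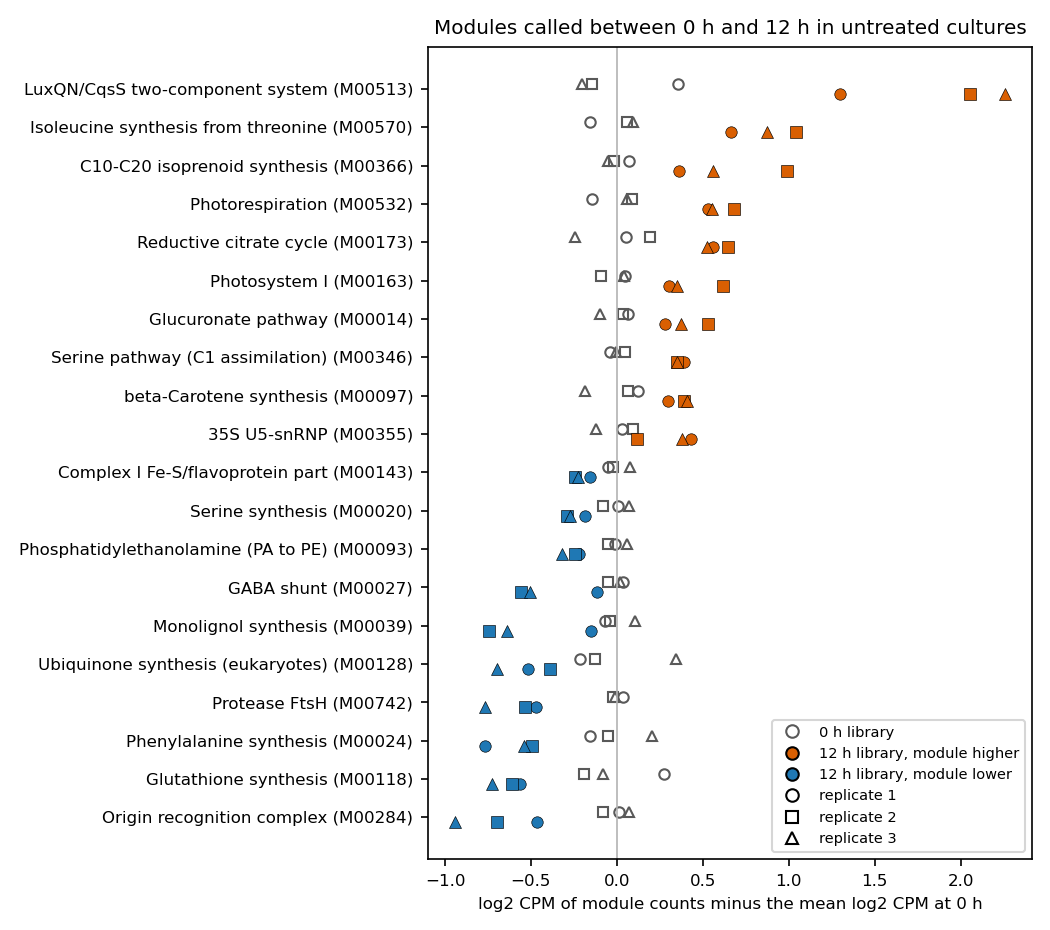
Level of each of the 20 called modules in the 6 untreated libraries, as log2 CPM of module counts minus the mean log2 CPM of the 3 libraries at 0 h. Open symbols are 0 h libraries, filled symbols 12 h libraries (orange where the module was higher, blue where it was lower), and the shape gives the replicate; open and filled symbols do not overlap in any row.

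In photosynthetic electron transport, 1 of 4 modules rose, photosystem I (M00163), and 3 were not called; the median change was 0.31, against 0.019 over all modules. Photosystem I stood at 4984, 4531 and 4973 CPM at 0 h and at 5956, 7391 and 6143 CPM at 12 h. All 3 later libraries lay above all 3 earlier ones, with replicate 2 highest at 12 h and lowest at 0 h. The change was 0.43 ± 0.12 (adjusted p = 0.023). It was not called without replicate 2 of 0 h or 12 h (adjusted p = 0.083 and 0.178) or without replicate 3 of 0 h or 12 h (0.0753 and 0.0615). Photosystem II (M00161), which splits water, read 601, 425 and 211 CPM at 0 h and 665, 703 and 1727 CPM at 12 h. Here 12 h replicate 3 was far above the others, and the change of 1.32 ± 0.61 was not called (adjusted p = 0.20). The chloroplast type ATP synthase (M00157) went from 4730 ± 193.4 to 5433 ± 295.2 CPM (SD, n = 3; log2 0.20 ± 0.071, adjusted p = 0.074). The cytochrome b6f complex (M00162), which links the photosystems, had a change of -0.22 ± 0.17 (adjusted p = 0.466).

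Of 5 modules of carbon fixation and photorespiration, photorespiration (M00532) rose and 4 were not called, with a median of 0.12. Photorespiration read 18350, 21560 and 21200 CPM at 0 h and 29290, 32570 and 29860 CPM at 12 h. The lowest 12 h library was well above the highest 0 h library (log2 0.59 ± 0.099, adjusted p = 0.00051). The Calvin cycle (M00165) was the most abundant of these modules and went from 116700 ± 13390 to 127100 ± 2829 CPM, with overlapping libraries (0.12 ± 0.19, adjusted p = 0.705). Both C4 acid cycles (M00171 and M00172), as KEGG names them, were at 0.20 and 0.11, and neither was called (adjusted p = 0.222 and 0.741).

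Outside this list the reductive citrate cycle (M00173) rose, a route of carbon fixation known from certain bacteria, several of whose enzymes also work in the ordinary citrate cycle and in pyruvate metabolism. Its levels were 27560, 30310 and 22460 CPM at 0 h and 39230, 41680 and 38290 CPM at 12 h. The 12 h libraries lay close together and above all 0 h libraries, among which replicate 3 was low (0.57 ± 0.11, adjusted p = 0.0018). The serine pathway (M00346), which methylotrophic bacteria use to take up one-carbon units and which shares enzymes with photorespiration, read 12480, 13280 and 12790 CPM at 0 h and 16850, 16390 and 16370 CPM at 12 h. Spread within either time was small beside the gap between them (0.36 ± 0.064, adjusted p = 0.00055). KEGG modules can hold the same genes, so these calls are not independent of each other.

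None of the 6 modules of central carbon metabolism was called, with a median of -0.10. Glycolysis (M00001) was level at 13410 ± 1114 CPM at 0 h and 13480 ± 994 CPM at 12 h, a change of 0.0071 ± 0.094 (adjusted p = 0.953). The citrate cycle (M00009) was at -0.14 ± 0.094 and the pentose phosphate pathway (M00004), which makes NADPH, at -0.22 ± 0.18 (adjusted p = 0.397 and 0.473). The glucuronate pathway (M00014), which makes activated sugar acids, belongs to no list and rose from 2183, 2135 and 1948 CPM to 2529, 3010 and 2698 CPM. No 12 h library reached down to a 0 h library (0.39 ± 0.10, adjusted p = 0.019). That call was lost without 12 h replicate 2 or 0 h replicate 3 (adjusted p = 0.0892 and 0.118).

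In the respiratory chain 1 of 10 modules fell and 9 were not called, and 7 of the 10 values were below 0, against 115 of all 236 modules (median -0.31). The module that fell was the iron-sulfur and flavoprotein part of complex I (M00143), the part that takes electrons from NADH. It read 4413, 4516 and 4827 CPM at 0 h and 4103, 3870 and 3916 CPM at 12 h, a small step without overlap (-0.21 ± 0.066, adjusted p = 0.046). The call was lost without any 1 of the 6 libraries, at an adjusted p of 0.0611, 0.074 and 0.24 without 0 h replicates 1, 2 and 3 and 0.0517, 0.176 and 0.226 without 12 h replicates 1, 2 and 3, and also with DESeq2 size factors. Cytochrome c oxidase (M00154), the terminal oxidase, was at -0.39 ± 0.18 (adjusted p = 0.199). Mitochondrial ATP synthase (M00158) read 15440, 15480 and 24890 CPM at 12 h, where replicate 3 alone was high, and was not called (0.26 ± 0.21, adjusted p = 0.468). Synthesis of ubiquinone (M00128), the carrier between complexes I and III, fell from 259, 275 and 381 CPM to 210, 229 and 185 CPM. At 0 h replicate 3 stood above the other libraries of its time (-0.55 ± 0.16, adjusted p = 0.037). Without that library the change was -0.36 (adjusted p = 0.297). The call was also lost without 12 h replicates 1, 2 or 3 (adjusted p = 0.0707, 0.0582 and 0.217).

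Amino acid synthesis had 18 modules, of which 1 rose and 2 fell, and 13 of the 18 values were below 0, against 115 of all 236 (median -0.20). Isoleucine synthesis from threonine by way of 2-oxobutanoate (M00570) read 2018, 2339 and 2402 CPM at 0 h and 3561, 4620 and 4123 CPM at 12 h. The lowest library at 12 h was far above the highest at 0 h. The change of 0.86 ± 0.12, or 1.82-fold, had the smallest adjusted p of all modules (7.2e-05), and it was the only module called under every alternative. Photorespiration, the serine pathway and FtsH lost their calls only with library sizes and factors of genes. With the control replicates 3 at 1 and 4 h also left out, edgeR called them on that scale (adjusted p = 4.54e-05, 0.000276 and 0.000276). Valine and isoleucine synthesis (M00019), which shares the later, branched-chain steps, read 8954, 9022 and 9731 CPM at 0 h and 9399, 6922 and 8745 CPM at 12 h. Its libraries overlapped and it was not called (-0.14 ± 0.12, adjusted p = 0.50). Threonine synthesis (M00018), the source of the substrate, was at 0.30 ± 0.29, with 12 h replicate 3 alone high at 5791 CPM (adjusted p = 0.556).

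Phenylalanine synthesis from chorismate (M00024) fell from 159, 171 and 204 CPM to 104, 126 and 122 CPM, with no overlap (-0.60 ± 0.16, adjusted p = 0.019). It was not called without 0 h replicate 3 (adjusted p = 0.118) or without 12 h replicates 1 or 3 (0.0663 and 0.0524). Serine synthesis from 3-phosphoglycerate (M00020), the route that does not pass through photorespiration, fell from 1943, 1826 and 2029 CPM to 1696, 1581 and 1596 CPM. The shift was small and clear of overlap (-0.25 ± 0.075, adjusted p = 0.037). Its call was lost without 0 h replicates 1 or 3 (adjusted p = 0.0918 and 0.189) and without 12 h replicates 2 or 3 (0.173 and 0.226). At 4 h the serine module read 1420, 1387 and 1412 CPM, below every 12 h library, with replicate 3, whose label is in doubt, last. Ornithine synthesis (M00028) at -0.42 ± 0.14 and lysine synthesis by the aminotransferase route (M00527) at -0.52 ± 0.17 were the nearest to the threshold of those not called (adjusted p = 0.06 for both).

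Outside the lists, the GABA shunt (M00027), which bypasses part of the citrate cycle through gamma-aminobutyrate, fell. It read 909, 856 and 899 CPM at 0 h and 819, 604 and 626 CPM at 12 h, with 12 h replicate 1 near the 0 h libraries (-0.38 ± 0.11, adjusted p = 0.037). Monolignol synthesis (M00039), named for the lignin precursors that land plants make from phenylalanine, fell from 307, 312 and 346 CPM to 289, 192 and 206 CPM. Again 12 h replicate 1 was close to the 0 h libraries (-0.49 ± 0.15, adjusted p = 0.037). Of the 6 libraries, only 12 h replicate 1 could be left out without losing either call. For the GABA shunt the adjusted p was 0.0968, 0.061 and 0.123 without 0 h replicates 1, 2 and 3 and 0.178 and 0.226 without 12 h replicates 2 and 3. For monolignols it was 0.0623, 0.0686 and 0.188 and then 0.176 and 0.206 in the same order.

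Of 17 modules of cofactors, pigments and antioxidants, 2 rose and 2 fell (median -0.037). Both that rose belong to isoprenoid metabolism. The C10 to C20 isoprenoid module (M00366), which makes the prenyl chains of carotenoids, chlorophyll and tocopherol, read 3255, 3068 and 2994 CPM at 0 h and 3995, 6174 and 4576 CPM at 12 h. At 12 h replicate 2 was the high one (0.66 ± 0.17, adjusted p = 0.019). It was not called without replicate 2 of 0 h or 12 h (adjusted p = 0.0589 and 0.146) or without 0 h replicate 3 (0.0895). Synthesis of beta-carotene (M00097), a photoprotective pigment, rose from 3648, 3502 and 2945 CPM to 4122, 4401 and 4439 CPM. The 12 h libraries were close together, and 0 h replicate 3 was low (0.36 ± 0.10, adjusted p = 0.031). The call was lost without replicate 2 of 0 h or 12 h (adjusted p = 0.0525 and 0.0892) and without replicate 3 of 0 h or 12 h (0.194 and 0.0941).

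The second pair fell. Glutathione synthesis (M00118), which makes the main thiol antioxidant of the cell, read 2037, 1476 and 1599 CPM at 0 h and 1143, 1105 and 1021 CPM at 12 h. At 0 h replicate 1 was the highest, and all 12 h libraries lay below all 0 h libraries (-0.65 ± 0.18, adjusted p = 0.023). It was not called without 0 h replicates 1 or 3 (adjusted p = 0.124 and 0.0556) or without 12 h replicates 2 or 3 (0.0892 and 0.145). Ubiquinone synthesis, given with the respiratory chain, was the other.

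Among 14 modules of fatty acids and lipids, 1 fell and 13 were not called (median 0.011). Phosphatidylethanolamine synthesis by way of phosphatidylserine (M00093), which makes a membrane phospholipid, read 1378, 1340 and 1446 CPM at 0 h and 1189, 1172 and 1110 CPM at 12 h. Its libraries were tight at both times (-0.26 ± 0.066, adjusted p = 0.019). Without replicate 3 of 0 h or 12 h the adjusted p was 0.0895 and 0.0654.

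DNA replication had 7 modules, of which 1 fell and 6 were not called, and the other 6 values were above 0, as were 121 of all 236 (median of the 7, 0.14). The origin recognition complex (M00284), which binds the sites where replication starts, read 3212, 3003 and 3334 CPM at 0 h and 2306, 1957 and 1657 CPM at 12 h. Every 12 h library was below every 0 h library (-0.69 ± 0.14, adjusted p = 0.0023). The MCM helicase (M00285), which the origin recognition complex loads onto DNA, went from 6917 ± 1038 to 8566 ± 1117 CPM and was not called (0.31 ± 0.22, adjusted p = 0.421). RPA (M00288), the single-strand binding complex, was level at 2543 and 2592 CPM (0.027 ± 0.084, adjusted p = 0.851).

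None of the 6 modules of cell cycle control and none of the 5 of DNA repair was called by edgeR, with medians of 0.16 and 0.29; of all modules 54 (22.9%) had an unadjusted p under 0.05. DNA damage checkpoints (M00691) read 901, 1025 and 751 CPM at 0 h and 1308, 1123 and 1327 CPM at 12 h. These libraries did not overlap, and the change of 0.49 ± 0.19 was not called (adjusted p = 0.112). The G1/S transition (M00692), the entry into replication, was level at 789 ± 93.1 and 781 ± 102 CPM (-0.013 ± 0.12, adjusted p = 0.933). All 5 repair values were above 0, as were 121 of all 236, from 0.18 for base excision repair (M00296) to 0.45 for the DNA-PK complex (M00297), which joins broken ends.

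Of 19 modules of transcription, splicing and RNA processing, 1 rose (median 0.17). The 35S U5 snRNP (M00355), a particle of the spliceosome, read 9379, 9783 and 8421 CPM at 0 h and 12380, 9944 and 11910 CPM at 12 h. Replicate 2 at 12 h was only just above the highest 0 h library (0.31 ± 0.091, adjusted p = 0.036). Leaving out replicate 1 of 0 h or 12 h ended the call (adjusted p = 0.0623 and 0.143), as did replicate 3 of either (0.194 and 0.137). The Prp19 complex (M00353), which acts in the same machine, was at -0.34 ± 0.11 and not called (adjusted p = 0.053).

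In ribosomes, proteasomes and proteases 1 of 8 modules fell (median -0.087). The FtsH module (M00742), which KEGG files under aminoglycoside resistance and whose plant and algal members include chloroplast proteases that remove damaged photosystem II proteins, read 21620, 20730 and 20960 CPM at 0 h. At 12 h it read 15210, 14570 and 12400 CPM. The 0 h libraries were nearly equal, and the 12 h libraries lay well below them (-0.59 ± 0.10, adjusted p = 0.00055). Eukaryotic ribosomes (M00177) went from 69190 ± 5237 to 65250 ± 9103 CPM with overlap (-0.085 ± 0.15, adjusted p = 0.745), and the proteasome core (M00340) was at 0.066 ± 0.13 (adjusted p = 0.762).

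No module of protein secretion and glycosylation (10, median 0.023), of transport systems (11, median -0.084) or of nitrogen and sulfur assimilation (3, median 0.84) was called by edgeR. The nitrogen median came from 1 library. Nitrate reduction (M00531) read 2730, 4632 and 3592 CPM at 0 h and 1443, 16420 and 1682 CPM at 12 h, and nitrate assimilation (M00615) read 1593, 2184 and 1946 CPM and then 1234, 11120 and 1331 CPM. In both modules 12 h replicate 2 was above every 0 h library and the other two 12 h libraries were below every 0 h library (adjusted p = 0.549 and 0.344).

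The largest called change of a module was in one of the least abundant. The LuxQN/CqsS two-component system (M00513), a quorum-sensing relay described in Vibrio bacteria, rose from 7.09, 5.01 and 4.82 CPM to 13.6, 23.04 and 26.5 CPM. Its deposited counts were 371, 285 and 232 at 0 h and 492, 641 and 1079 at 12 h. All 12 h libraries were above all 0 h libraries, and the change was 1.90 ± 0.49 (adjusted p = 0.019). The call was lost without replicate 2 of 0 h or 12 h (adjusted p = 0.0628 and 0.0552) and without replicate 3 of 0 h or 12 h (0.092 and 0.0684). The files do not say which algal genes stand behind that name.

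The sampling times between give a description of when these levels moved, with the control labels of 1 and 4 h as deposited and replicate 3 given last. The origin recognition complex read 2114, 2344 and 2213 CPM at 1 h and 2130, 2313 and 1814 CPM at 4 h. FtsH read 17410, 16470 and 14320 CPM at 1 h and 17940, 15920 and 15330 CPM at 4 h. In both modules every library of 1 and 4 h was below every 0 h library, with or without replicate 3 and whichever of these times it belongs to. Photorespiration read 19550, 18560 and 21530 CPM at 1 h, within the range of 0 h, and 26200, 25480 and 30420 CPM at 4 h. The reductive citrate cycle read 26240, 23740 and 23170 CPM at 1 h and 28950, 27870 and 34630 CPM at 4 h. In the first of these, replicate 3 at 4 h reached into the range of 12 h, and in the second every library of 1 and 4 h was below every 12 h library. The serine pathway read 12610, 12740 and 13120 CPM at 1 h and 15230, 13860 and 15740 CPM at 4 h, all below every 12 h library. Isoleucine synthesis from threonine read 2561, 2610 and 3217 CPM at 1 h and 2825, 2822 and 3831 CPM at 4 h, of which only replicate 3 at 4 h reached into the range of 12 h. The 4 modules that rose had their highest mean at 12 h.

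**Figure D2:**
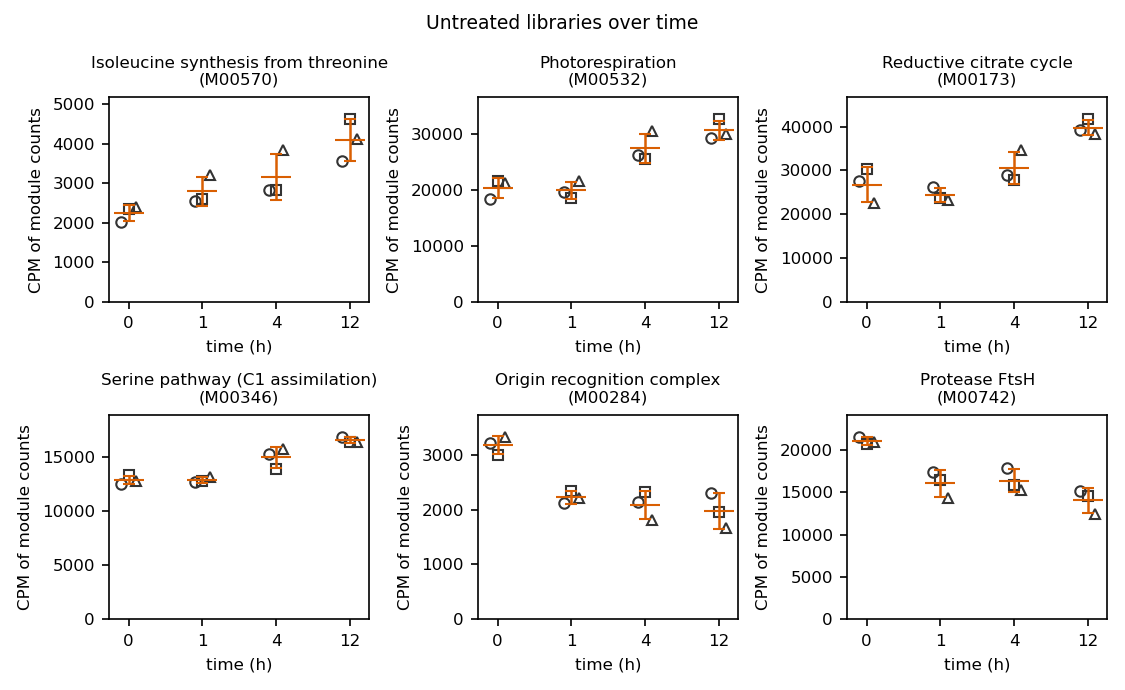
CPM of module counts in the untreated libraries at 0, 1, 4 and 12 h for the 6 modules called without any 1 of the 6 libraries. Symbols are libraries (circle, square and triangle for replicates 1, 2 and 3), orange bars the mean ± SD (n = 3) and the axes start at 0; origin recognition and FtsH are lower at 1 h than at 0 h, and the other 4 have their highest mean at 12 h.

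The called genes changed by modest amounts. The 161 genes that rose had a median change of 0.74 (0.41 to 2.44), and the 133 that fell had a median of -0.68 (0.37 to 3.02 in size); over all 7190 genes the median was -0.0042. At least 2-fold changes were called for 34 genes (0.473%), 21 higher and 13 lower, whereas 26 of the risers and 44 of the fallers changed by under 1.5-fold. Together the risers held 3.24%, 3.46% and 3.26% of the scaled counts at 0 h and 4.79%, 5.40% and 5.08% at 12 h. The fallers went from 3.29%, 3.17% and 3.70% to 2.01%, 1.98% and 1.84%. Since the members of both sets were called on these libraries, these shares are a description only. Of 2362 genes whose libraries did not overlap (32.9%), 1116 were higher (15.5%) and 1246 lower (17.3%) at 12 h. In all, 30 genes were called without any 1 of the 6 libraries as well, 13 higher and 17 lower.

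Calls were commoner among abundant genes. With the genes in 4 classes of equal size by level, the lowest class (mean log2 CPM 0.43 to 3.64 over all libraries) had 10 of 1798 genes called (0.556%), and the highest class (6.72 to 15.3) had 132 of 1798 (7.34%). The classes between held 51 (2.84%) and 101 (5.62%). Risers had a median level of 6.66, fallers of 6.41 and all tested genes of 5.15 on the log2 CPM scale. Median gene length was 1539 bp for risers, 1176 bp for fallers and 1170 bp for all tested genes. Counting precision grows with level at a given depth, and CPM are not divided by gene length. The part of counting precision in these differences was not tested.

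**Figure D3:**
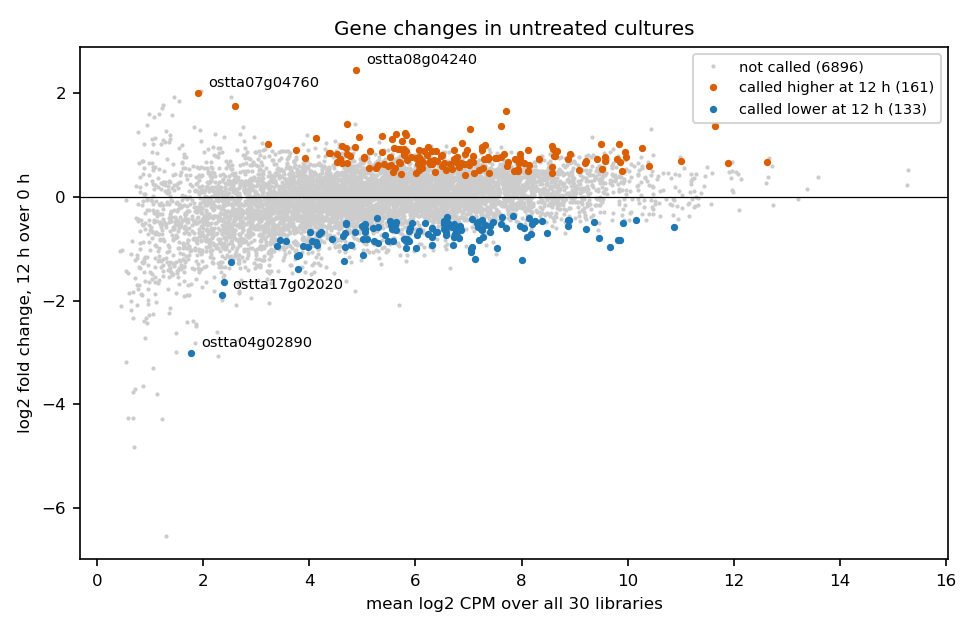
Log2 fold change of each of 7190 tested genes (12 h over 0 h) against its mean log2 CPM over all 30 libraries, with the 161 genes called higher in orange, the 133 called lower in blue and the rest in grey. Called changes are mostly under 1 in size, and the large changes in grey sit among genes of low level.

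The tables used here pair the locus tags with no description of function, so 4 genes stand for the ends of the called changes. They had the largest rises and falls among called genes without overlap whose mean log2 CPM was 1 or more. That their groups lay apart was thus fixed by the choice and is a description only. Over all 7190 tested genes, called or not, changes reached 6.53 in size. OT_ostta08g04240, on chromosome 8 by its tag, read 5.78, 9.49 and 4.92 CPM at 0 h and 29.4, 49.0 and 32.4 CPM at 12 h. The groups were far apart, and the 5.42-fold rise was called without any 1 of the libraries (log2 2.44 ± 0.46, adjusted p = 0.0043), although not with replicate 3 of both times left out (adjusted p = 0.101). Controls of this gene read 14.1 and 18.8 CPM at 1 h and 19.1 and 24.6 CPM at 4 h, with replicate 3, whose labels are in doubt, at 24.00 and 28.3 CPM. In copper cultures it stood at 25.5 ± 6.24 and 39.3 ± 29.55 CPM at 1 and 12 h of the lower level and at 34.95 ± 10.1 and 29.7 ± 15.6 CPM of the higher level (SD, n = 3), so all of these values and means lay above the 0 h level.

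OT_ostta07g04760, on chromosome 7, read 0.619, 0.808 and 1.28 CPM at 0 h and 2.79, 4.42 and 3.94 CPM at 12 h, from 3, 4 and 6 and then 9, 11 and 13 counts. The groups were apart on few counts (2.00 ± 0.56, adjusted p = 0.042). The call was lost without any 1 library, at an adjusted p of 0.119, 0.102 and 0.108 without 0 h replicates 1, 2 and 3 and 0.0565, 0.0997 and 0.149 without 12 h replicates 1, 2 and 3. OT_ostta04g02890, on chromosome 4, fell from 1.86, 4.44 and 5.13 CPM (9, 22 and 24 counts) to 0.619, 0.402 and 0.303 CPM (2, 1 and 1 counts). It was near the floor in all 12 h libraries (-3.02 ± 0.63, adjusted p = 0.0099), and it was not called without replicate 3 of 0 h or 12 h (adjusted p = 0.0553 and 0.0686). OT_ostta17g02020, on chromosome 17, fell from 10.1, 10.5 and 11.6 CPM to 4.95, 2.41 and 1.21 CPM. Its 0 h libraries were close together and its 12 h libraries were spread (-1.89 ± 0.50, adjusted p = 0.034). Only 12 h replicate 1 could be left out without losing the call; the adjusted p was 0.0614, 0.0604 and 0.118 without 0 h replicates 1, 2 and 3 and 0.083 and 0.174 without 12 h replicates 2 and 3.

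Symbols were attached to 2 of the genes in the RefSeq table of assembly version 140606, which is of strain RCC4221. DBR1 (OT_ostta11g02450), which opens the lariats left by splicing, read 30.1, 25.0 and 19.9 CPM at 0 h and 28.8, 27.3 and 31.2 CPM at 12 h and was not called (0.22 ± 0.21, adjusted p = 0.528). The other, OT_ostta07g02410, lies on chromosome 7 by its tag and carries the symbol psbL, the name of a small subunit of photosystem II. It had 7, 1 and 3 counts at 0 h and 1, 6 and 3 counts at 12 h. These were too few to show a difference (0.56 ± 0.96, adjusted p = 0.74).

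Called genes were spread over all 20 chromosomes, at 3.12% to 5.56% of the tested genes of each. Among 6782 pairs of tested neighbours 7 pairs held 2 risers, 5 held 2 fallers, 4 held 1 of each, and 529 held a single called gene. Most called genes thus had no called neighbour. This is a description only, since no more than 4.09% of all tested genes were called. Whether called genes lay side by side more often than that share gives was not tested. The longest run was 3 neighbouring risers on chromosome 9.

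By chromosome, the median change of all tested genes lay between -0.090 and 0.16 except on chromosomes 19 and 20. On chromosome 19, 55 of 73 genes were tested, with a median change of 0.39, although only 2 were called, both higher. Its median per library, relative to each gene's mean at 0 h, ran from -0.063 to 0.0938 at 0 h and from 0.276 to 0.637 at 12 h. All 12 h libraries were above all 0 h libraries, as also on chromosome 2. On chromosomes 9, 16 and 17 all 12 h libraries were below all 0 h libraries, so such separation was not particular to chromosome 19. The chromosome 19 median was 0.226 without 12 h replicate 3 and 0.18 without replicate 3 of both times. In controls it was 0.236 and 0.082 at 1 h and 0.169 and 0.188 at 4 h, with replicate 3, whose labels are in doubt, at 0.487 and 0.0158. In lower copper it ran from 0.0601 to 0.506 at 1 h, from 0.011 to 0.633 at 4 h and from -0.0268 to 0.732 at 12 h, past the untreated libraries of 12 h at both ends. In higher copper it ran from -0.168 to 0.471 at 1 h, from -0.172 to 0.126 at 4 h and from -0.347 to -0.124 at 12 h. Chromosome 2 had a median of 0.16 over 512 genes (-0.0608 to 0.0469 at 0 h, 0.0993 to 0.258 at 12 h), and chromosome 16 one of -0.090 over 288 genes (-0.136 to -0.057 at 12 h). Chromosome 20 had one of -0.18 over 85 genes, with overlapping libraries. They lay at -0.101, -0.0267 and 0.118 at 0 h and at -0.000698, -0.0862 and -0.374 at 12 h.

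**Figure D4:**
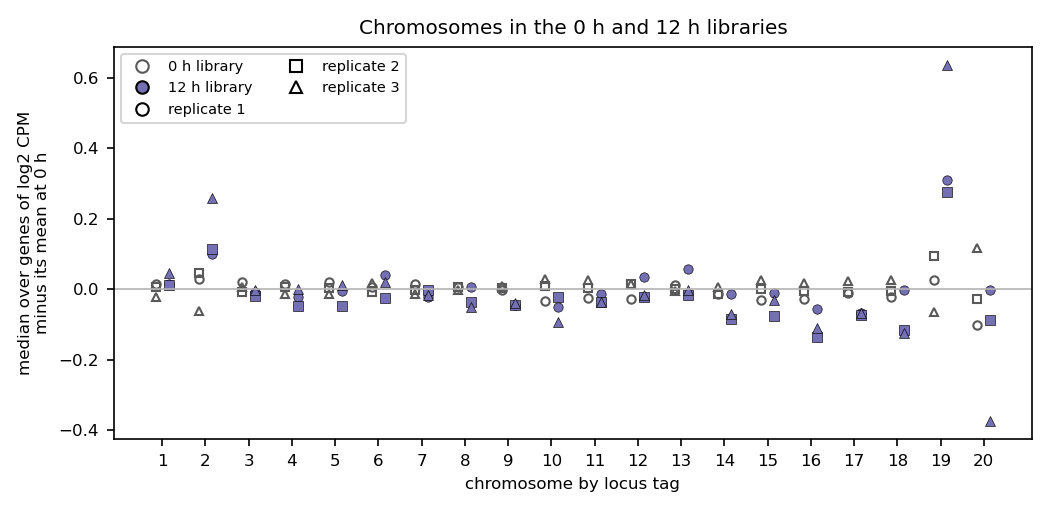
Median over the tested genes of each chromosome of log2 CPM minus the gene's mean log2 CPM at 0 h, for the 3 libraries at 0 h (open) and the 3 at 12 h (filled), with the shape giving the replicate. At 12 h chromosome 19 lies at 0.276 to 0.637, chromosome 2 at 0.0993 to 0.258 and chromosome 16 at -0.136 to -0.057, and chromosome 20 has the lowest single library, at -0.374.

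Cultures with copper were sampled at 1 and 12 h in libraries that are in neither group of the untreated comparison, although they share its estimate of the spread, from a later start and with copper present throughout. In lower copper, 12 h against 1 h, edgeR called 0 genes (629 at an unadjusted p under 0.05, 8.75%; 89 by DESeq2 after adjustment, and 22 by edgeR without the control replicates 3 at 1 and 4 h) and 10 modules (4.24%; 6 higher, 2.54%, and 4 lower, 1.69%). In higher copper it called 458 genes (6.37%; 230 higher and 228 lower) and 30 modules (12.7%; 21 higher, 8.9%, and 9 lower, 3.81%). At an unadjusted p under 0.05 there were 31 modules in lower copper (13.1%), and in higher copper 1559 genes (21.7%) and 65 modules (27.5%). The count of 458 called genes in higher copper was 258 without its 1 h replicate 1. It was 221 and 233 without 12 h replicates 2 and 3 of higher copper, and 4 when only its 1 and 12 h groups were fitted.

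In lower copper 116 of the 161 risers were above 0 (72%; median 0.16), against 52.7% of all genes (median 0.017), and 51 of the 133 fallers were above 0 (38.3%; median -0.054). In higher copper 98 of the risers were above 0 (60.9%; median 0.078) against 48.5% of all genes (median -0.013), and 65 of the fallers (48.9%; median -0.0044). There 12 of the risers were called higher (7.45%, against 3.2% of all genes) and 2 lower, and 16 of the fallers were called lower (12%, against 3.17%) and 1 higher. Risers and fallers lay at higher levels than all genes (median log2 CPM 6.66 and 6.41 against 5.15), where calls were commoner in the untreated comparison. The shares of all genes are not matched for level, and the part of level was not tested. The genes were chosen for their calls in the untreated libraries, so the size of their medians there and in copper is not compared. From 0 to 1 h in controls, labels as deposited, all 161 risers were above 0 (median 0.431), against 51.5% of all genes. Of the 133 fallers, 4 were above 0 (median -0.404). Those values share the 0 h libraries of the calls, so they are a description only. Controls were not compared at 12 h against 1 h, so the part of copper was not tested.

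**Figure D5:**
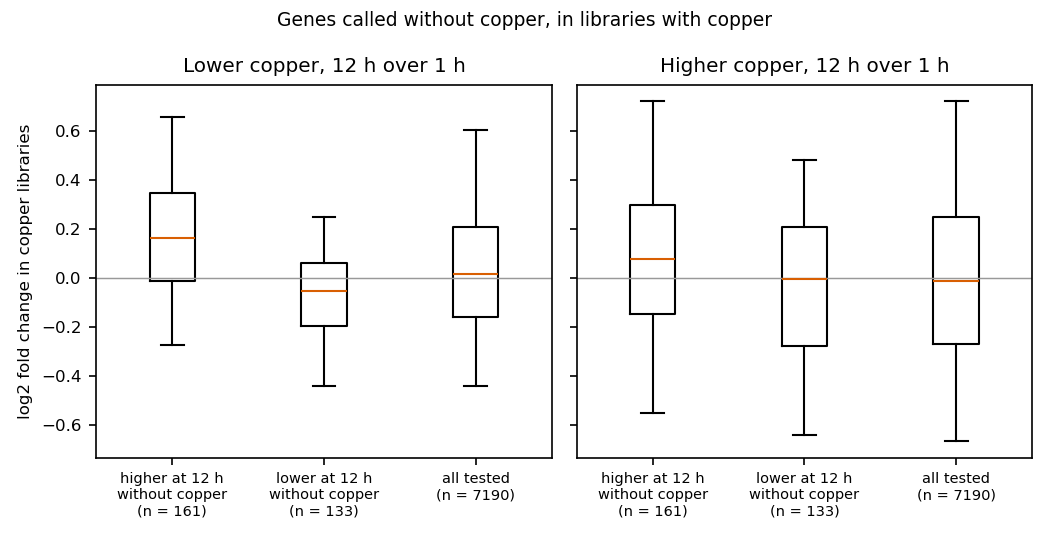
Log2 fold change from 1 to 12 h in lower copper (left) and higher copper (right) for the 161 genes called higher and the 133 called lower in untreated cultures and for all 7190 tested genes. Boxes are quartiles with the median in orange and whiskers reach the 5th and 95th percentiles; in lower copper the risers have a median of 0.16 and the fallers of -0.054, and in higher copper 0.078 and -0.0044.

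For modules, 9 of the 10 that rose without copper were above 0 in lower copper (median 0.22) and 6 of 10 in higher copper (median 0.25), against 102 (43.2%) and 105 (44.5%) of all 236. The serine pathway, photorespiration and the reductive citrate cycle were called higher in both. Photorespiration went from 23280 to 25900 CPM at 1 h to 34310 to 36690 CPM at 12 h in lower copper (0.55 ± 0.099, adjusted p = 0.00087) and from 23800 to 31480 CPM to 41020 to 43900 CPM in higher copper (0.56 ± 0.099, adjusted p = 0.00036). The libraries of the 2 times were apart at both copper levels. For the reductive citrate cycle the changes were 0.70 ± 0.11 and 0.66 ± 0.11, and for the serine pathway 0.31 ± 0.064 and 0.38 ± 0.064 (adjusted p from 0.00025 to 0.0027). In higher copper, photosystem I (0.41 ± 0.12, adjusted p = 0.026) and isoleucine synthesis from threonine (0.38 ± 0.12, adjusted p = 0.041) were called higher as well; in lower copper the latter was at 0.42 ± 0.12 (adjusted p = 0.051).

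Of the 10 modules that fell without copper, 8 were below 0 in lower copper (median -0.20). In higher copper 4 were below 0 and 6 above (median 0.087). Copper changes start at 1 h and untreated ones at 0 h, and controls were not compared at 12 h against 1 h. The part of copper in these values was therefore not tested. Serine synthesis was called lower in lower copper (-0.32 ± 0.075, adjusted p = 0.01) and none was called in higher copper. Origin recognition stood at 1631 to 1929 CPM at 1 h and 1509 to 2211 CPM at 12 h in lower copper, and at 1531 to 1996 CPM and 1865 to 2309 CPM in higher copper. All of these libraries were below all untreated libraries of 0 h, and the changes from 1 to 12 h were 0.0043 ± 0.14 and 0.21 ± 0.14 (adjusted p = 0.995 and 0.358). FtsH likewise stood at 13500 to 16130 CPM and 12700 to 15910 CPM in lower copper and at 12410 to 15540 CPM and 14960 to 16440 CPM in higher copper, below all 0 h libraries (-0.062 ± 0.10 and 0.16 ± 0.10, adjusted p = 0.825 and 0.346).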

How the data were processed

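The authors deposited raw counts of reads per gene and, in a second table, counts per KEGG module. RNA was extracted with TRIzol and sequenced as stranded, poly(A)-selected TruSeq libraries, per the labels' protocols. The submitters' processing notes name DESeq2; for the aligner, the genome build and the making of module counts, the sources used here give nothing. A row without a name, 0.00038% of the counts, was dropped.

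The members and lists were chosen with earlier results of these data known. Genes were filtered with filterByExpr (minimum count 10; 437 of 7627 removed), modules were not. Counts were scaled by TMM and fitted in 1 model of 10 groups over 30 libraries (20 residual degrees of freedom) with edgeR 4.0.16 (R 4.3.3, limma 3.58.1). Contrasts used its quasi-likelihood test with Benjamini-Hochberg adjustment over all genes or modules. The SE is the absolute log2 change divided by the root of F. DESeq2 1.42.0 was an alternative, beside other scalings, filters, sample sets, a replicate block and left-out libraries. The procedure was tested on simulated data.

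Every called module is named. Of genes without a description, at most 2 rises and 2 falls were named, the largest changes among called genes without overlap whose mean log2 CPM was 1 or more. For lack of descriptions and sequences, lists of genes by function and promoter motifs were not used here. RefSeq locus tags matched 7626 of 7627 genes. Depths were 2549094 to 4854863 counts per library, and counting error is widest for genes of few counts.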

Additional observations from a re-analysis of the deposited data

How the results depend on the processing

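With the DESeq2 test 582 genes and 31 modules (12 higher, 19 lower) were called between 0 and 12 h, and with only the 6 libraries 619 genes and 12 modules. Leaving out 1 library gave 42 to 184 genes and 7 to 18 modules, and leaving out replicate 3 of both times, chosen after seeing the data, 6 and 4. Library sizes of the gene table gave 1 module, and 11 with the control replicates 3 at 1 and 4 h also left out (chosen after seeing the data). Same-numbered libraries of 12 h and 0 h did not deviate together (correlations of -0.0874, -0.0244 and -0.369 over genes). With 3 libraries at each time these correlations cannot show whether the numbers pair the libraries. A replicate block gave 450 genes (273 higher, 177 lower) and 27 modules (11 higher, 16 lower). All 294 genes and all 20 modules stayed called with the block. Lower copper at 12 h against 1 h gave 5 genes with DESeq2 size factors, 89 with the DESeq2 test, 8 with the block, 22 without the control replicates 3 at 1 and 4 h, 3 without a filter and 0 to 8 without 1 library. Higher copper gave 4 genes with only its groups and 221 to 474 without 1 library. The change of psbL ran from -0.31, without 12 h replicate 2, to 1.36 without 1 library. DESeq2 gave no adjusted p for some genes of low counts, and these were left out. The 12 h libraries were the shallower ones, and counting error is widest for genes of few counts. The causes of these differences, depth included, were not tested.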
